A study of Mus musculus with 7 samples.

Results

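The genes described here are 9 genes of amino acid supply and of the integrated stress response: the transcription factor genes Atf4, Ddit3 and Atf3, the pseudokinase gene Trib3, the biosynthetic enzyme genes Asns, Psat1 and Phgdh, the glutathione-degrading enzyme gene Chac1 and the hormone gene Fgf21. They were chosen by name, as 9 of the 32451 genes on a 1-colour Agilent mouse array, and were found through the RefSeq accession of each probe, which gave 12 probes. Livers came from male C57/BJ mice that were put at 6 weeks of age on a high-fat diet (HFD, n = 3) or on control chow (n = 4) and were taken after 20 weeks, at 26 weeks of age. No genetic change is named for either group. The labels do not say whether a sample is 1 animal or a pool, so p-values measure only the spread between these samples.

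The integrated stress response is a shared reaction of cells to amino acid shortage, unfolded protein, viral RNA or lack of haem. Kinases that sense these states phosphorylate the initiation factor eIF2, which slows most translation but favours translation of the Atf4 messenger RNA. The ATF4 protein then binds composite sites in the promoters of genes for amino acid synthesis and transport, together with C/EBP or other ATF proteins. In liver, Fgf21 is a known target of this route as well as of fasting signals.

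The data hold scanner files for 39429 probes and a deposited table of log2 values for 1615 probes. The 3 HFD scanner files followed their columns of the table across these probes (Pearson r of at least 0.9999). The 4 files labelled chow correlated with theirs at r of only 0.580 to 0.589. Each of these 4 correlated better with some other column, at r of 0.618 to 0.628. The chow files were therefore used for no diet comparison, and diet was compared in the table alone. At each of the table's 1615 probes every HFD value lay on one side of every chow value. The table was thus selected on this comparison, and its p-values are not independent evidence. Asns and Atf3 were in the table, and the 7 other members were not, so for these only their HFD levels are given. All 3 HFD arrays share 1 scan day. The 4 files labelled chow also share 1 scan day, which is not that of the HFD arrays. As those files did not match the chow columns, no scan day is known for the columns. Scan day and diet cannot be told apart. HFD replicate 1 had a mean negative control signal of 46.9 against 29.9 and 30.8 on the other HFD arrays and a quality status that asked for evaluation. All 9 measured hepatocyte markers were detected on each HFD array.

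The promoters of the members are shown because ATF4 acts through a short sequence that several of them carry. Sequences are from RefSeq on the build GRCm38.p6, where all 9 members matched. Each runs from 250 bases before to 50 bases after the annotated start, 5′ to 3′ on the strand of the gene. In Asns the capitals mark TGATGAAAC and GTTACA, the pair known as the nutrient-sensing response elements of this gene. In Atf3 they mark a match on the opposite strand to the amino acid response core TGATGNAA.
Asns, chr6:7693160-7693459, minus strand: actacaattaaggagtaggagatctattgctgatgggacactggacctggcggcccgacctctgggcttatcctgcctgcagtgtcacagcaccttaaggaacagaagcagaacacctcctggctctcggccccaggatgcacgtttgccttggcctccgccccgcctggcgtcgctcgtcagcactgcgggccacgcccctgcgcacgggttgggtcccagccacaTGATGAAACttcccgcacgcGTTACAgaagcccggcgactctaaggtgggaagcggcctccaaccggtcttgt
Atf3, chr1:191183284-191183583, minus strand: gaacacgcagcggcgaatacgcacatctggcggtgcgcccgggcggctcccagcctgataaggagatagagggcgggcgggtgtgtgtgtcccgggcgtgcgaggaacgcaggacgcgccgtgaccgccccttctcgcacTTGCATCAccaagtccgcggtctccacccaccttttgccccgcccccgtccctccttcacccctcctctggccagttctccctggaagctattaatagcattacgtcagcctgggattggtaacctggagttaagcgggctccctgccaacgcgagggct

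The Asns promoter held TGATGAAAC from base -23 and GTTACA from base -3, counted from the start. Of 32851 promoters of this length, 81 (0.247%) held TGATGAAAC on either strand. GTTACA on either strand was in 8.25%. The order of the pair, with GTTACA starting within 30 bases after TGATGAAAC on the strand of the gene, was found in 1 promoter, that of Asns, the gene from which the pair was defined. The core TGATGNAA, searched on both strands, was in 5 of the 10 member promoters (Psat1 has 2) and in 3.97% of all promoters. It overlaps TGATGAAAC in Asns. In Atf3 it lay on the opposite strand from base -110. A looser pattern of an ATF part and a C/EBP part, TGNNGCAA, was added after these sequences had been read. It was in 5 of 10 member promoters and in 11.4% of all promoters, and it overlaps the core wherever the core ends in GCAA. The remaining matches of the core, and those of Trib3 and Psat1, are given in windows of 28 bases, because they set the members with such a sequence apart from those without. Capitals mark either pattern.
Chac1, chr2:119351039-119351066, plus strand: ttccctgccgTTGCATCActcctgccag
Fgf21, chr7:45615612-45615639, minus strand: gacccccccaTTGCATCAtccgtccagg
Trib3, chr2:152344076-152344103, minus strand: gggtcacagaTGGTGCAAtcccgggccg
Trib3, chr2:152344029-152344056, minus strand: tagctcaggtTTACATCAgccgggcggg
Psat1, chr19:15925178-15925205, minus strand: cgcgggtggcTGGTGCAAtcccctgctc

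Chac1 and Fgf21 shared with Atf3 the 8 bases of the core in the opposite orientation, from base -193 in Chac1 and from base -139 in Fgf21. Trib3 held the looser pattern from base -33 and the core from base 15. Psat1 held the looser pattern alone, from base -136 of its first promoter. Chac1 held 2 further matches to the looser pattern, from bases -250 and -230. In Atf4, Ddit3 and Phgdh neither pattern was in the window. The cyclic AMP response element TGACGTCA was in no member promoter and in 1.79% of all promoters. A match is a description of the letters in this window and not evidence of binding.

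**Figure D1:**
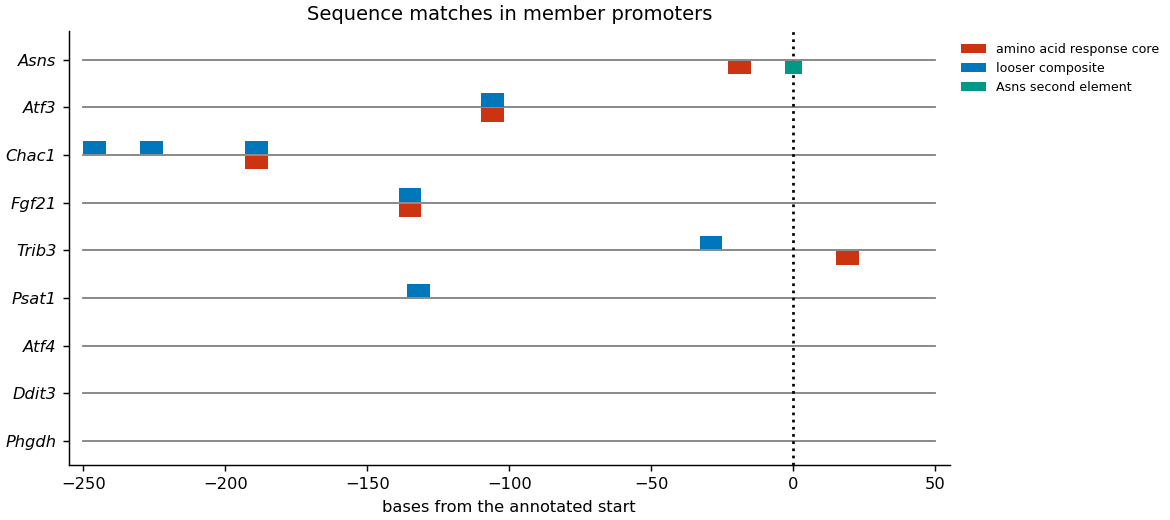
Positions of sequence matches in the first listed promoter of the 9 members, in bases from the annotated start (dotted line), with coloured blocks for the core TGATGNAA, the looser pattern TGNNGCAA and the second Asns element GTTACA. Asns carries its pair of matches from base -23 and base -3, and Atf4, Ddit3 and Phgdh carry none of these.

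The question the design asks is how liver expression differed between HFD and chow. Asns was lower and Atf3 higher in HFD. Asns, asparagine synthetase, makes asparagine from aspartate and glutamine. Its log2 level in the table was 12.87, 10.15, 12.62 and 11.89 in chow replicates 1 to 4, and 7.97, 8.39 and 7.64 in HFD replicates 1 to 3. Every HFD sample lay below every chow sample, and the groups were likewise apart at all 1615 table probes. The nearest samples of the groups, chow replicate 2 and HFD replicate 2, were 1.76 apart. Means were 11.88 ± 1.23 in chow (SD, n = 4) and 8.0 ± 0.38 in HFD (SD, n = 3). The log2 change was -3.88 ± 0.63 (SE), 14.8-fold (limma, adjusted p = 0.0393). Of the 687 table genes that were lower in HFD, 1 had a larger fitted fall.

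The chow samples varied widely in Asns. Their SD ranked second of 1488 table genes, where the median SD within chow was 0.16. Chow replicate 2 was the lowest, by 1.74 below the next chow sample and by 2.72 below the highest. Without it, Asns was 22.0-fold lower in HFD (limma, adjusted p = 0.0249). Leaving out any other sample gave 11.7-fold to 16.9-fold and adjusted p-values in limma from 0.0887 to 0.180. Of 9 measured hepatocyte markers 2, Serpina1a and Cps1, were in the table, and both were lower. The table held 4.59% of all genes, 2.12% as lower in HFD. For the hepatocyte markers outside it the direction is not known. The log2 of the summed signals of Serpina1a and Cps1 was 18.46 to 18.59 in chow and 17.93 to 18.10 in HFD. Serpina1a, the brighter, dominates that sum. The log2 changes were -0.52 for Serpina1a and -1.36 for Cps1. The part of these markers in the fall of Asns was not tested. In whole liver, fewer cells of a type and less RNA per cell cannot be told apart.

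Atf3, a stress-induced repressor of the ATF family, had log2 levels of 5.67, 6.04, 6.30 and 5.42 in chow replicates 1 to 4, and 8.98, 7.57 and 7.61 in HFD replicates 1 to 3. Every HFD sample lay above every chow sample, with a gap of 1.28 between the nearest. Here too the lack of overlap is shared by all 1615 table probes. Means were 5.86 ± 0.39 in chow (SD, n = 4) and 8.05 ± 0.80 in HFD (SD, n = 3). The log2 change was 2.20 ± 0.39 (SE), 4.59-fold (limma, adjusted p = 0.0471). The HFD values lay above the highest detection floor of the HFD arrays, 4.77 on the scale of the table. No floor is known for the chow columns, so whether the chow values of Atf3 were above background is not known. HFD replicate 1, the array with the raised negative controls, was 1.37 above the next HFD sample. Without it, Atf3 was 3.33-fold higher (limma, adjusted p = 0.0497). Without any other sample it was 4.15-fold to 5.42-fold higher, with adjusted p-values in limma from 0.0596 to 0.170.

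The macrophage markers in the table moved in the same direction as Atf3. Of 9 measured, 3 were in the table (Itgam, Gpnmb and Ccr2), and all 3 rose. Of all genes 4.59% were in the table, 2.47% as higher in HFD. For the markers outside the table the direction is not known. The log2 of the summed signals of Itgam, Gpnmb and Ccr2 was 11.36 to 11.41 in chow. In HFD replicates 1 to 3 it was 12.54, 12.26 and 12.09. Itgam, the brightest, dominates that sum. The log2 changes were 0.81 for Itgam, 4.93 for Gpnmb and 2.35 for Ccr2. All 9 were detected on the HFD arrays. Stellate cell markers were in the table for 2 of 9, Col1a2 and Col3a1, both higher in HFD without passing. The log2 of their summed signals was 11.68 to 11.93 in chow and 14.00, 13.46 and 12.52 in HFD replicates 1 to 3. The part of these macrophage and stellate cell markers in the rise of Atf3 was not tested. No endothelial, cholangiocyte or lymphocyte marker was in the table.

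**Figure D2:**
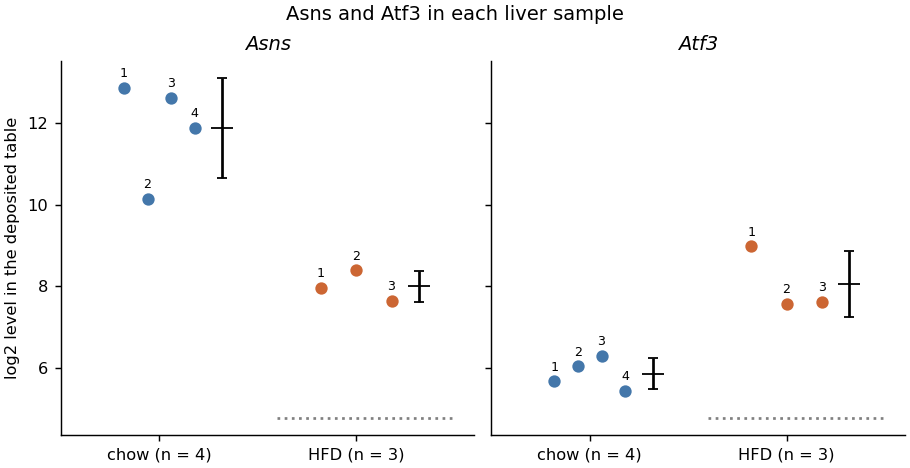
Log2 level in the deposited table (vertical axis) for Asns and Atf3 in each chow and HFD sample; points carry replicate numbers, black marks are the mean ± SD and the dotted line, drawn beside the HFD samples, is the highest HFD detection floor, 4.77. Asns runs from 10.15 to 12.87 in chow and from 7.64 to 8.39 in HFD, and Atf3 from 5.42 to 6.30 in chow and from 7.57 to 8.98 in HFD.

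Of the 9 members, 1 passed as lower and 1 as higher. Over all 32451 genes, 0.832% passed as lower and 1.05% as higher, and 1.89% in all; of the 1488 table genes 41.1% passed. Of the genes that passed, 55.9% were higher in HFD, and with all columns brought to a common median 23.5% were. With 2 of 9 members in it, the table held 4.59% of all genes, 2.47% as higher and 2.12% as lower in HFD. Members outside the table may have overlapped between the groups or been left out for another reason. Nothing is said here of their response to diet.

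The table genes whose values most resembled those of Asns were Enho, Mt1 and Apcs, each gene being centred on its own mean over the 7 columns. Their root mean square differences from Asns were 0.78, 0.81 and 0.87 on the log2 scale, against a median of 2.31 over 1166 named genes. The measure includes the change between the groups, so genes with changes of like size and direction lie near by construction. It also includes the differences within each group. A highest or lowest sample shared with Asns or Atf3 is therefore part of how these genes were picked. Enho, Mt1 and Apcs had log2 changes of -4.16, -2.91 and -2.55. Apcs, the serum amyloid P component, had its lowest chow value in chow replicate 2 (13.00, against 14.14 to 14.61), as Asns did. In Enho and Mt1, the genes of adropin and of a metallothionein, the chow samples spread less, with SDs of 0.39 and 0.25. For Atf3 the nearest genes were Ccl2, a monocyte chemokine, Pnpla3, a lipid droplet lipase, and Apoa4, an apolipoprotein, with differences of 0.22, 0.31 and 0.32 against a median of 0.999. In all 3 the highest value was in HFD replicate 1, which was 10.50 for Ccl2 against 8.60 and 8.93 in the other HFD samples. Ccl2 (limma, adjusted p = 0.0669) and Apoa4 (limma, adjusted p = 0.0530) did not pass.

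Other genes of the same pathways moved in both directions. The lists hold 113 distinct measured genes besides the members, of which 106 had probes well above background on all 3 HFD arrays, as 63.3% of named genes did. In the table were 11 (9.73%), 8 lower and 3 higher in HFD. Of all genes 4.59% were in the table, 2.12% as lower and 2.47% as higher. Of these 11 pathway genes, 3 passed as lower and 2 as higher. Of all genes 0.832% passed as lower and 1.05% as higher, and of the table genes 41.1% passed. With columns at a common median 6 passed as lower. Their median log2 fold change was -0.74, where that of all table genes was 0.44. Since all of these genes had been selected on the comparison, the counts describe the table and do not test the lists.

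Among kinases, phosphatases and factors of the integrated stress response, 2 of 11 measured genes were in the table. Nupr1, a small stress-induced nuclear protein and known partner of this response, had log2 levels of 8.89, 8.38, 8.61 and 8.61 in chow and of 10.64, 10.25 and 9.56 in HFD. It rose 2.88-fold (limma, adjusted p = 0.0420), and HFD replicate 1 was again the highest. Eif2s1, the eIF2 subunit that the kinases phosphorylate, was 1.42-fold lower and did not pass (limma, adjusted p = 0.0773). None of the 17 measured genes listed as further ATF4 targets, among them Sesn2, Ddit4, Gdf15 and Gpt2, was in the table, which held 4.59% of all genes. That list does not hold every known target. Slc1a4, for example, is a known target in the table that was listed with the transporters. Of these 17, 12 were well above background on all 3 HFD arrays, and Stc2, Slc7a11 and Pck2 were not on any.

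In serine, glycine and one-carbon metabolism, 3 of 19 genes were in the table and none passed. Psph, the enzyme of the last step of serine synthesis, averaged 8.90 ± 0.48 in chow (SD, n = 4) against 7.80 ± 0.13 in HFD (SD, n = 3) (limma, adjusted p = 0.0831). Its chow value was lowest in chow replicate 2, at 8.29. Cth, which makes cysteine from cystathionine, had log2 differences of -0.74 and -0.71 at its probes. Mthfd1l, a mitochondrial folate enzyme, had a log2 difference of 1.94 ± 0.42 (SE; limma, adjusted p = 0.0690). Without HFD replicate 3 that change was 2.36 and passed (limma, adjusted p = 0.0393).

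Single genes of the remaining amino acid lists were in the table. Glul, glutamine synthetase, had the tightest groups of the 11 genes, with 14.87, 14.88, 14.92 and 14.78 in chow and 15.73, 15.81 and 15.70 in HFD. It rose 1.85-fold (limma, adjusted p = 0.0219) and was the 1 gene listed of 13 in asparagine, glutamine, glutamate and proline metabolism. Glul consumes glutamate and Asns consumes glutamine. Slc1a4, a neutral amino acid transporter, averaged 11.92 ± 0.14 in chow (SD, n = 4) against 10.98 ± 0.28 in HFD (SD, n = 3) and fell 1.92-fold (limma, adjusted p = 0.0388), the 1 listed of 14 transporters. Iars, the isoleucyl-tRNA synthetase, was the 1 listed of 13 synthetases, at a log2 difference of -0.65 that did not pass (limma, adjusted p = 0.0785). Cps1, the first enzyme of the urea cycle, was the 1 listed of 18 genes of amino acid breakdown, at a log2 difference of -1.36 that did not pass (limma, adjusted p = 0.0528).

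Other branches of the unfolded protein response had 2 of 15 genes in the table, and both fell. The table held 4.59% of all genes, 2.12% as lower in HFD, and 0.832% of all genes passed as lower. Derl3, a factor of endoplasmic reticulum degradation, had 12.39, 11.60, 11.60 and 11.29 in chow and 9.91, 9.17 and 10.23 in HFD, a 3.86-fold difference (limma, adjusted p = 0.0427). Dnajb9, a co-chaperone, was 1.96-fold lower (limma, adjusted p = 0.0372), with a log2 difference of -0.97 at this probe and -0.94 at its other probe. Hspa5, Xbp1 and the remaining genes of this list were detected in HFD but were not in the table, so their direction is not known.

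**Figure D3:**
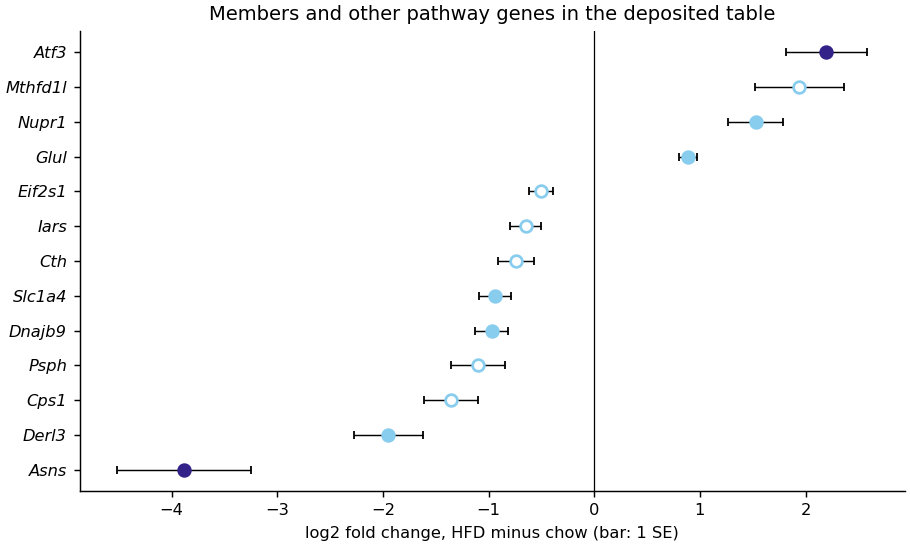
Log2 fold change of HFD minus chow (horizontal axis, bars 1 SE) for Asns and Atf3 (dark) and the 11 other pathway genes of the table (light); filled points passed at an adjusted p under 0.05 in limma. Asns lies lowest at -3.88 and Atf3 highest at 2.20, with 8 of the 11 other genes below 0.

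The members were all measurable in HFD liver. These levels are log2 processed signals minus the 75th percentile of the array, so 0 is that percentile. They describe 1 probe over the 3 HFD arrays and do not compare probes with each other. Of the 12 member probes 11 were well above background on all 3 arrays, as were 54.9% of all probes. The exception was 1 of 2 probes of Psat1, which was not well above background on any.

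The transcription factors and Trib3 differed in how far apart the HFD arrays lay. Atf4 had levels of 4.18, 4.22 and 4.65 in HFD replicates 1, 2 and 3 at one probe, and -0.35, -0.59 and -0.07 at the other. Both probes were highest in HFD replicate 3, with an SD of 0.26 at each, above that of 69.4% and 69.5% of detected probes. Ddit3, which encodes the stress factor CHOP, had -0.61, -0.91 and -1.26, highest in HFD replicate 1, with an SD of 0.32, above that of 77.8%. Trib3, which binds ATF4 and restrains it, had 1.56, 1.45 and 1.21, in the same order. Its SD of 0.18 was near the median SD of 0.17 over 21650 detected probes. Atf3 on the same scale had -0.68, -2.08 and -2.06, and its SD of 0.81 was above that of 98.0% of detected probes. Against detected probes of like level, the SDs of Atf4 were above those of 82.55% and 76.05%. The shares were 79.55% for Ddit3, 66.5% for Trib3 and 98.1% for Atf3.

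The enzymes of serine synthesis gave dim signals. Phgdh, the enzyme of the first step of serine synthesis from glycolysis, had -4.17, -4.74 and -4.35 at one probe and -3.76, -4.93 and -4.99 at the other. The floor of detection was -4.80, -5.63 and -5.96 on these arrays. Both probes put HFD replicate 1 highest. HFD replicates 2 and 3 lay within 0.06 of each other at the second probe, where normexp background correction reversed their order. Psat1, the transaminase of the next step, had -2.07, -2.50 and -3.15 at its detected probe, with the arrays in the same order as for Ddit3 and Trib3. Asns had -1.65, -1.28 and -2.03 on this scale, highest in HFD replicate 2.

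Chac1 and Fgf21 put the HFD arrays in opposite order. Chac1 had -0.44, 0.88 and 1.62 in HFD replicates 1, 2 and 3. Its range of 2.06 and SD of 1.04 exceeded the SD of 99.2% of detected probes. Fgf21, the secreted metabolic hormone, had 1.58, 0.55 and 0.29, with an SD of 0.68, above that of 96.4% of detected probes. HFD replicate 1 was thus lowest for Chac1 and highest for Fgf21. Under 3 other scalings of the arrays these orders of Chac1 and Fgf21 were the same at both ends.

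Of the 11 detected member probes, 7 were highest on HFD replicate 1, 1 on HFD replicate 2 and 3 on HFD replicate 3. Of all detected probes 31.8% were highest on HFD replicate 1, 29.5% on HFD replicate 2 and 38.7% on HFD replicate 3. The 7 probes belong to 6 genes, Ddit3, Atf3, Trib3, Psat1, Phgdh and Fgf21. This array was the one with raised negative controls, which lie at the dim end where both Phgdh probes and Psat1 were measured. The part of that background in these orders was not tested.

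**Figure D4:**
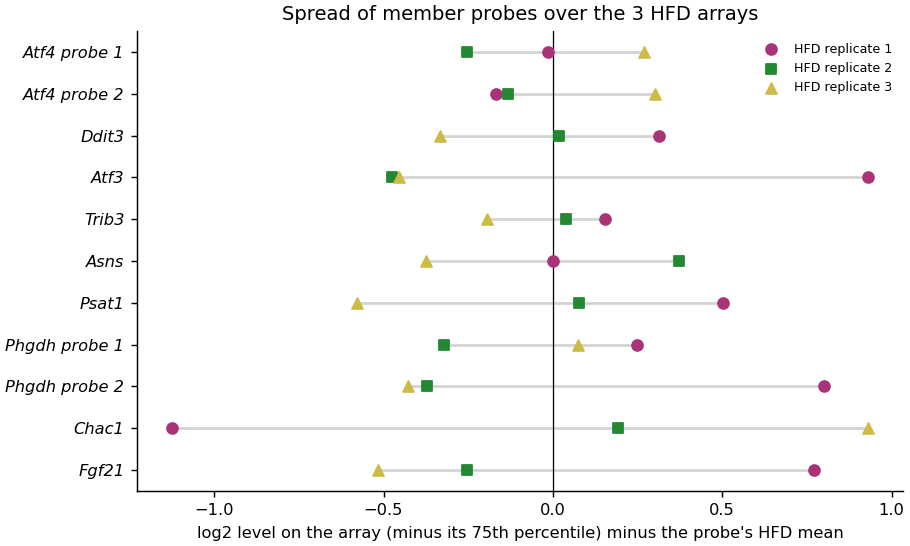
Level of each detected member probe on the 3 HFD arrays (log2 minus the 75th percentile of the array) as the difference from the mean of that probe over the arrays; each symbol is 1 HFD replicate. Chac1 spans 2.06 with HFD replicate 1 lowest, while Atf3 and Fgf21 span 1.41 and 1.29 with HFD replicate 1 highest.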

How the data were processed

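Cy3-labelled liver RNA was hybridised to Agilent arrays, per the labels' protocols, with 1 array for each sample. Intensity values per spot are in the deposited scanner files, and the processed signal is background-subtracted, per the file headers, by Feature Extraction 10.7.3.1 (version 9.1 in the submitters' processing notes). The authors' deposited log2 table covers 1615 probes, and how it was normalized and selected is not given in the sources used here. Their log2 scale and direction were set against the HFD scanner signals, and the scale of the chow columns stays unknown. Column medians were 9.55 to 9.56 for chow and 9.68 to 9.85 for HFD.

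Of 39429 probes, 27234 were named through RefSeq accessions (GRCm38.p6, names only). Spots flagged as outliers were left out. The members and all gene lists were chosen with earlier results of these data known. Diet was tested in the table with limma 3.58.1 (R 4.3.3), HFD minus chow, on the probe with the highest mean per gene. Variances were moderated toward a prior of 0.0354 with 2.10 degrees of freedom, from 19493 genes detected on 2 or more HFD arrays. Benjamini-Hochberg adjustment covered 32451 genes, those outside the table at a p of 1, with a threshold of 0.05. The procedure was tested on simulated data without the selection of the table and adjusted over the table genes alone. Error rates in the selected table were therefore not tested. The number of arrays limits precision. Named genes were the members, passing genes of each list (otherwise the one with the smallest p) and the 3 nearest table genes of each tested member. Psph, Cth, Eif2s1, marker genes and untested list genes named beyond that rule were chosen after their values were seen. Alternatives varied the prior, adjustment, probe rule, replicate block, dim-probe filter, scaling and samples.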

Additional observations from a re-analysis of the deposited data

How the results depend on the processing

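All 13 table genes named from the members and pathway lists kept their direction under each of their 14 alternatives. This was fixed in advance and is no test of direction. The groups overlap at no table probe, so leaving out samples could not reverse a direction, nor could another prior or adjustment. The common-median shift of -0.21 was smaller in size than the smallest difference in the table, 0.33. The calls of Asns and Atf3 changed with the setting. Without variance moderation neither passed in limma, at -3.88 (adjusted p = 0.133) and 2.20 (adjusted p = 0.151). With the replicate number as a block, values in limma were -3.88 (adjusted p = 0.289) and 2.05 (adjusted p = 0.349). Chow replicate 4 has no HFD sample of its number, so it does not enter these estimates. They equal those without chow replicate 4. The block also leaves fewer degrees of freedom, so its loss of calls does not measure pairing alone. Atf3 also did not pass, at 2.20 (adjusted p = 0.0510), when only probes well above background on all 3 HFD arrays were used, where 1 member passed. Over all alternatives adjusted p-values ran from 0.00180 to 0.289 for Asns and from 0.00216 to 0.349 for Atf3.

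Leaving out 1 sample gave -4.46 to -3.55 for Asns and 1.73 to 2.44 for Atf3, and 0 to 1 members, 0 to 2 lower and 0 to 3 higher pathway genes passed, in fits with fewer samples. Over all genes the calls then ran from 0 higher and 0 lower without chow replicate 1 to 265 and 228 without HFD replicate 3, against 342 and 270 with all samples. Without chow replicate 2 they were 48 and 51, without chow replicate 3 they were 4 and 7, without chow replicate 4 they were 2 and 1, without HFD replicate 1 they were 79 and 87, and without HFD replicate 2 they were 4 and 4. Asns passed without chow replicate 2 alone, and Atf3 without HFD replicate 1 alone. With all samples 2 members, 3 lower and 2 higher pathway genes passed. Without moderation these were 0, 0 and 1 (6 higher and 1 lower over all genes). Under the block they were 0, 0 and 0 and no gene of the table passed in limma, although 1488 had an unadjusted p under 0.05. With the prior of the table itself 552 and 474 genes passed. Adjusted over the table alone, 8 lower pathway genes and all 1488 table genes passed. Whether the replicate numbers pair the samples is not known. Deviations of chow and HFD samples of numbers 1, 2 and 3 correlated at -0.10, 0.13 and 0.01. Chow replicate 1 correlated best with HFD replicate 3, at 0.14, and chow replicate 2 with HFD replicate 2, at 0.13. With so few samples these correlations cannot settle the pairing.

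Bringing the columns to a common median shifted HFD against chow by -0.21 on the log2 scale. Calls were then 186 higher and 605 lower (23.5% higher, against 55.9%), and 6 lower pathway genes passed. Asns was -4.10 and Atf3 1.99, and both passed. Other scalings of the HFD arrays left the highest array as it was at all 11 detected member probes and changed the lowest array at 3, 1 probe each of Atf3, Atf4 and Phgdh.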
